A study of Mus musculus with 24 samples.

Results

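The genes of blood vessel endothelium and of the secreted factors that act on it were followed through a mouse model of mammary tumor dormancy. The 10 genes were taken by symbol from the 55288 genes of the deposited tables. Of these, 6 encode endothelial receptors or junction proteins (Pecam1, Cdh5, Kdr, Flt1, Tek and Tie1, called the vessel genes here) and 4 encode secreted ligands (Vegfa, Vegfc, Angpt1 and Angpt2, called the factor genes). All 10 were present in the tables of both cultured cells and tumors. D2A1 and D2.1 are mouse mammary tumor lines, both derived from the D2 hyperplastic nodules of the BALB/c strain. D2A1 cells grow out rapidly, whereas D2.1 cells can enter dormancy. RNA-seq was done on 24 libraries in 6 groups, with, for each line, 3 cultures, 4 tumors from BALB/c hosts and 5 from SCID-beige hosts. Hosts were female and 8 to 12 weeks old, cells were implanted in the fourth inguinal mammary fat pad, and tumors were taken at about 500 mm3. Tumors were matched on volume and not on time in the mouse, which cannot be told apart from the line. The paper calls these D2.1 tumors later-stage, so they need not stand for the dormant phase. BALB/c mice are immunocompetent, whereas SCID-beige mice lack T and B cells and have defective NK cells but retain myeloid cells and their own vessels. Each behavior is thus represented by 1 established line, and cells in culture were grown in triplicate.

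Endothelial cells line blood vessels and are held together by junction proteins such as VE-cadherin and PECAM1. They respond to VEGF ligands through receptor tyrosine kinases on their surface, and to angiopoietins through TIE2. Angiopoietin-1 activates TIE2 and steadies vessels, whereas angiopoietin-2, which is made largely by endothelial cells of remodelling vessels, can block that signal. Tumor cells, in contrast, are a well known source of VEGF-A.

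Depth was 16837260 to 24818234 counts per library in cultured cells and 13566949 to 18355153 in tumors, so that 3 counts in 1 library, the floor used here, correspond to at most 0.178 and 0.221 CPM (counts scaled to the library total), which covers counting error only. Levels are given as CPM with TMM normalization across all 24 libraries, and n is 3, 4 or 5 libraries as above. Each tumor library came from an individual tumor, whereas the study's methods call replicates of in vitro experiments technical, so that p-values on cultures may measure technical spread only. A whole tumor holds tumor and host cells, and fewer cells of a type cannot be told apart from less RNA per cell. The tables of cells and tumors were deposited separately, so that growth in the mouse and the table cannot be told apart either. Among D2.1 BALB/c tumors, replicate 1 held 384.5 CPM of 5 milk protein transcripts in sum, against 0.402 to 0.760 in the other 3, and replicate 4 the most skin transcripts (184 CPM), so the comparisons of this group with D2A1 and with SCID-beige tumors were recomputed without both.

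Promoters were available for 6 of the 10 genes in the RefSeq-derived table (build GRCm38.p6). Those of 4 are shown, 2 receptors of the same ligand family on chromosome 5, of which Flt1 was high and Kdr near 0 in cultured cells, and 2 ligands of that family (Vegfa and Vegfc). Each line gives the 250 bases before the annotated start, 5′ to 3′ on the gene's strand, or 247 for Kdr, where the last 3 lie within the GENCODE gene. Capitals mark GGAA, the core that ETS factors bind, and ACGTG or GCGTG, the cores of hypoxia response elements, on either strand (TTCC, CACGT and CACGC on the strand shown), with no overlap between motifs in these 4 windows.
Kdr (chr5:75978459-75978705, minus strand): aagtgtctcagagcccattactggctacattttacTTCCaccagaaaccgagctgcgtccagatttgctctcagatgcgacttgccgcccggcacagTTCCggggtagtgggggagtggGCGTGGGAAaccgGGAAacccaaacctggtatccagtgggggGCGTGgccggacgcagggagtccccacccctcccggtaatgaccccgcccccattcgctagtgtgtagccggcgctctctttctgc
Flt1 (chr5:147726012-147726261, minus strand): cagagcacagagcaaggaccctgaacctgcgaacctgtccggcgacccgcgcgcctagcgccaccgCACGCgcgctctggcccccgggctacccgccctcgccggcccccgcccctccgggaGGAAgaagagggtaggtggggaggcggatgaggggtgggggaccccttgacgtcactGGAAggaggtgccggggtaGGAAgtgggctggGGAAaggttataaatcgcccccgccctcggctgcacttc
Vegfa (chr17:46032378-46032627, minus strand): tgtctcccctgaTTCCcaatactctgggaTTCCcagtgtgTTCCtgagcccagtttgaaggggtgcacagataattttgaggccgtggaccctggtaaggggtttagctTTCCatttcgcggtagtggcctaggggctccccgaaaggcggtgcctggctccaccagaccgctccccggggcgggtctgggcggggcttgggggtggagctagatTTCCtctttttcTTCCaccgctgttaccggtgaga
Vegfc (chr8:54077282-54077531, plus strand): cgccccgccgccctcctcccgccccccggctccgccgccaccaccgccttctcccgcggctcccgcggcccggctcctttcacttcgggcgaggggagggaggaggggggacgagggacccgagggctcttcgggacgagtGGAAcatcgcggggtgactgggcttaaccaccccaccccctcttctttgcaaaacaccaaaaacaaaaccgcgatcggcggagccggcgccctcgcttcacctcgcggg
GGAA matched 4 times in the Kdr window, 4 times in Flt1, 6 times in Vegfa and 1 time in Vegfc. It is common, since 93.4% of the 32851 mouse promoters kept from the same table, read over the same 250 bases, held at least 1 match. Promoters of 1 chromosome, and windows short of 250 bases, were left out of these shares. GCGTG matched 2 times in Kdr and 1 time in Flt1, whereas neither GCGTG nor ACGTG was among the letters of the Vegfa and Vegfc windows. Either of these 2 motifs was held by 38.6% of the promoters kept (GCGTG by 28.2% and ACGTG by 16.6%). A match describes the letters and no site, and a missing match says only that these letters are not in this window.

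In cultured cells, 5 of the 6 vessel genes were at or near 0 in both lines. Pecam1 had 4, 5 and 3 counts in the 3 D2.1 cultures and 1, 3 and 0 in the 3 D2A1 cultures. Cdh5 had 5, 1 and 1 against 0, 1 and 0 counts, and Kdr had 5, 0 and 4 against 0, 0 and 0. Tek and Tie1 each had 1 count in all over the 3 libraries of either line. These 5 genes did not pass the filter on low counts and were not tested between the cultured lines.

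Flt1, which encodes VEGF receptor 1, was the exception among the vessel genes. Its level in culture was 135, 167 and 159 CPM in the 3 D2.1 libraries and 23.3, 21.9 and 37.4 CPM in the 3 D2A1 libraries. The groups did not overlap, and D2.1 cells had a 5.71-fold higher level (log2 fold change 2.51 ± 0.21 SE, edgeR quasi-likelihood adjusted p, by Benjamini-Hochberg over all genes tested, = 2.46e-05). Flt1 is widely used as a vessel marker, and these cultures held near 0 counts of the other 5 vessel genes. Of the 28 other endothelial genes on the list, Notch4 at 465 to 571 CPM and S1pr1 at 54.8 to 91.0 CPM were also high in D2.1 cultures, against 12.5 to 25.4 and 1.39 to 2.25 CPM in D2A1 cultures. Of the 8 of those 28 that could be tested in culture, 4 were higher and 1 lower in D2.1, beside 44.9% of all genes called in either direction. Among the higher was Plvap, a gene of fenestrated endothelium (4.46 ± 0.64, edgeR adjusted p = 6.43e-04).

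All 4 factor genes were expressed by at least 1 line in culture, and 3 of them were higher in D2.1 cells. Together with Flt1, 4 of the 5 tested genes of the set were called between the cultured lines, where 44.9% of all 12489 tested genes were called. Vegfc, which encodes a ligand best known for its action on lymphatic vessels, was at 5.96, 5.33 and 9.29 CPM in D2.1 against 0.608, 0.899 and 0.174 CPM in D2A1 cultures (log2 fold change 3.62 ± 0.48, edgeR adjusted p = 4.04e-04). Angpt1 was at 25.1, 29.3 and 17.1 against 1.52, 1.44 and 1.97 CPM (3.89 ± 0.27, edgeR adjusted p = 9.36e-06). For both, the lowest D2.1 culture lay above the highest D2A1 culture, and the fitted difference of the groups was 12.3-fold for Vegfc and 14.8-fold for Angpt1. Angpt2 was at 8.61, 7.13 and 7.76 against 3.83, 4.08 and 6.55 CPM (0.73 ± 0.25, edgeR adjusted p = 0.0414), a call that was lost in 5 of the 6 fits that left out 1 culture (adjusted p up to 0.153). Vegfa was at 101, 86.2 and 54.7 against 88.3, 82.3 and 102 CPM, with overlapping groups and no call (-0.14 ± 0.22, edgeR adjusted p = 0.644).

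In tumors, the 5 vessel genes that were near 0 in culture were present in every library of both lines. This checked the tissue label, since the defining endothelial genes Pecam1, Cdh5 and Tie1 all reached at least 128 counts in each tumor. From the pooled counts, Cdh5 was 158 (95% interval 76.4 to 393) times higher in D2.1 tumors of SCID-beige mice than in D2.1 cultures. In the D2A1 line the culture held 1 Cdh5 count, and the ratio was 3940.4 (95% interval 707 to 155663). Kdr had 0 counts in all 3 D2A1 cultures and was at least 121-fold higher in D2A1 tumors of SCID-beige mice and at least 148-fold higher in those of BALB/c mice, against the floor of 3 counts per library. The intervals cover counting error only.

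All 10 genes were tested between tumors and cultures of the same line. In D2.1, 9 of 10 were called for SCID-beige tumors (53.1% of all genes tested) and 7 of 10 for BALB/c tumors (57.4% of all genes). In D2A1, 10 of 10 were called with either host, beside 58.1% of all genes for SCID-beige and 56.0% for BALB/c tumors. Since over 50% of all genes were called, these counts carry little, and the sizes are given below gene by gene. Each pair of comparisons with the same cultures shares those libraries and is given side by side only.

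**Figure D1:**
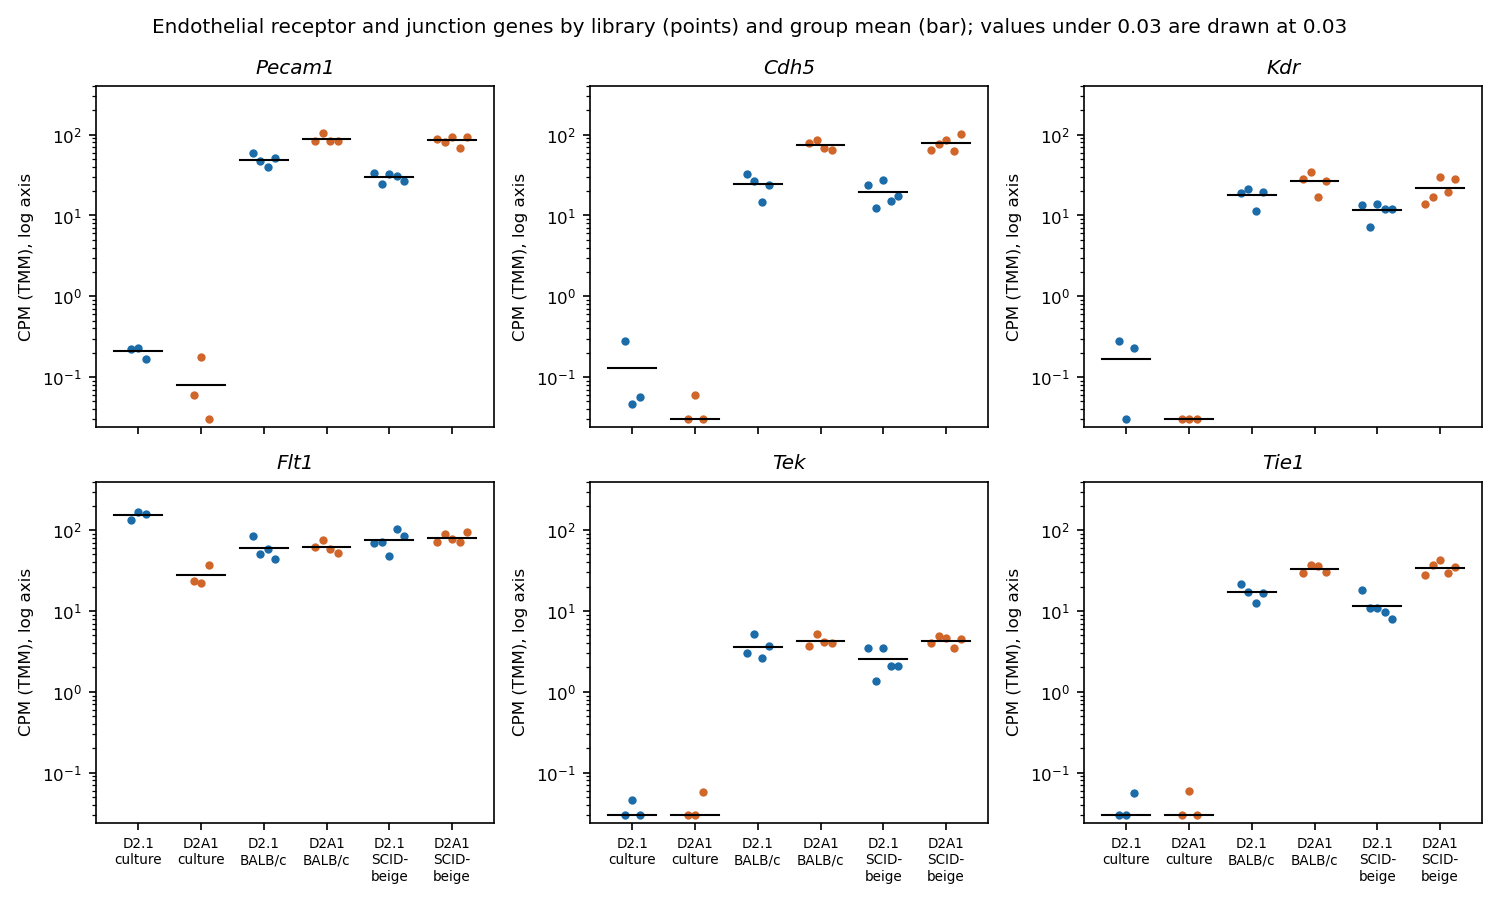
Level of the 6 vessel genes (CPM with TMM normalization, log axis) in each of the 24 libraries (points, blue for D2.1 and orange for D2A1), with the group mean as a bar. Except for Flt1, the cultures sit at or near the lower edge, and the D2A1 tumors have the higher group means in both hosts.

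Among tumors, the junction genes separated the lines in both hosts. Cdh5 (ENSMUSG00000031871, GRCm38 chr8:104101625-104144511, plus strand), which encodes VE-cadherin, was at 32.9, 26.8, 14.6 and 23.9 CPM in the 4 D2.1 BALB/c tumors and at 78.5, 87.1, 68.1 and 64.1 CPM in the 4 D2A1 tumors. In SCID-beige mice it was at 24.0, 12.5, 27.4, 15.2 and 17.5 CPM in D2.1 and at 63.8, 76.0, 85.9, 62.7 and 102 CPM in D2A1 tumors. Every D2A1 tumor was above every D2.1 tumor of either host. The D2.1 level was 3.01-fold lower in BALB/c mice (log2 fold change -1.59 ± 0.24, edgeR adjusted p = 7.06e-04) and 4.03-fold lower in SCID-beige mice (-2.01 ± 0.23, edgeR adjusted p = 2.20e-05). An antisense transcript on the opposite strand, Gm29682, reached no more than 5 counts in a tumor.

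Pecam1 (ENSMUSG00000020717, chr11:106654217-106750628, minus strand), which encodes an adhesion molecule of endothelium, platelets and some leukocytes, followed the same order. Its level was 59.5, 46.9, 39.4 and 51.4 CPM in D2.1 against 84.2, 105, 83.5 and 82.6 CPM in D2A1 tumors of BALB/c mice. In SCID-beige mice it was 33.3, 24.9, 32.8, 30.8 and 26.7 against 88.6, 81.2, 93.5, 68.1 and 94.2 CPM. The lines did not overlap in either host, with a D2.1 level 1.79-fold lower in BALB/c (-0.84 ± 0.17, edgeR adjusted p = 0.00369) and 2.86-fold lower in SCID-beige mice (-1.52 ± 0.15, edgeR adjusted p = 6.50e-06).

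Of the receptors, Tie1 (ENSMUSG00000033191, chr4:118471191-118490061, minus strand), an orphan receptor that pairs with TIE2, behaved like the junction genes. Its level was 21.8, 17.2, 12.7 and 16.5 CPM in D2.1 and 29.7, 37.3, 36.0 and 30.8 CPM in D2A1 tumors of BALB/c mice, and 18.1, 11.0, 11.0, 9.81 and 7.96 CPM against 27.8, 36.6, 42.3, 29.5 and 35.1 CPM in SCID-beige mice. No D2.1 tumor reached the lowest D2A1 tumor. D2.1 tumors had 1.95-fold less in BALB/c (-0.96 ± 0.20, edgeR adjusted p = 0.00439) and 2.96-fold less in SCID-beige mice (-1.57 ± 0.22, edgeR adjusted p = 1.28e-04). Tek (ENSMUSG00000006386, chr4:94739289-94874976, plus strand), which encodes the angiopoietin receptor TIE2, was the lowest of the vessel genes per length, at 3.0, 5.19, 2.64 and 3.67 against 3.67, 5.19, 4.18 and 4.01 CPM in BALB/c and 3.53, 1.34, 3.47, 2.12 and 2.11 against 4.01, 4.94, 4.62, 3.49 and 4.48 CPM in SCID-beige mice. For Tek the lines overlapped in both hosts and neither difference was called (-0.23 ± 0.31, edgeR adjusted p = 0.618, and -0.77 ± 0.33, adjusted p = 0.0900).

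Kdr (ENSMUSG00000062960, chr5:75932827-75978458, minus strand) encodes VEGF receptor 2, through which most VEGF-A signal passes. It was at 19.0, 21.3, 11.4 and 19.5 CPM in D2.1 and 28.3, 34.7, 16.8 and 26.4 CPM in D2A1 tumors of BALB/c mice, and at 13.4, 7.29, 14.1, 11.9 and 12.1 against 13.7, 17.0, 29.8, 19.5 and 28.1 CPM in SCID-beige mice. The ranges overlapped in both hosts. The D2.1 level was 1.83-fold lower in SCID-beige mice (-0.87 ± 0.25, edgeR adjusted p = 0.0185), a call that was lost without D2A1 replicate 3 (adjusted p = 0.0554). In BALB/c mice the difference was -0.57 ± 0.27 on the log2 scale and was not called (edgeR adjusted p = 0.129), although it was called with the replicate number as a block (-0.56, adjusted p = 0.00847).

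Flt1 (ENSMUSG00000029648, chr5:147561604-147726011, minus strand) did not separate the lines in tumors. Its level was 84.0, 51.4, 59.0 and 44.5 CPM in D2.1 and 61.3, 76.2, 58.6 and 52.2 CPM in D2A1 tumors of BALB/c mice, and 68.8, 70.6, 48.6, 102 and 84.5 against 72.0, 88.4, 78.1, 70.8 and 94.1 CPM in SCID-beige mice. The groups overlapped throughout, and the log2 differences of -0.047 ± 0.22 (edgeR adjusted p = 0.894) and -0.10 ± 0.19 (adjusted p = 0.714) were smaller than their standard errors. Relative to the cultures, Flt1 moved in opposite directions. It fell in D2.1 (log2 fold change -1.07 ± 0.21 for SCID-beige tumors, edgeR adjusted p = 0.00158, and -1.32 ± 0.22 for BALB/c tumors, adjusted p = 5.91e-04) and rose in D2A1 (1.53 ± 0.20, adjusted p = 7.39e-05, and 1.17 ± 0.22, adjusted p = 9.53e-04). The difference between these changes was itself tested for SCID-beige tumors and was called (-2.60 ± 0.31, edgeR adjusted p = 1.16e-05).

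In BALB/c mice, 3 of the 6 vessel genes (Cdh5, Pecam1 and Tie1) and 3 of the 4 factor genes were called between the lines, 6 of the 10 in all, where 32.6% of the 14953 genes tested were called. In SCID-beige mice, 4 of the 6 vessel genes and all 4 factor genes were called, 8 of 10, beside 32.1% of 14355 genes. All vessel genes called were lower in D2.1, with a median over the 6 of -0.70 (log2) in BALB/c and -1.19 in SCID-beige mice, against -0.019 and 0.018 for all genes tested. The factor genes were split, with Vegfc (and, in SCID-beige mice, Angpt1) higher and Vegfa and Angpt2 lower in D2.1 tumors.

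**Figure D2:**
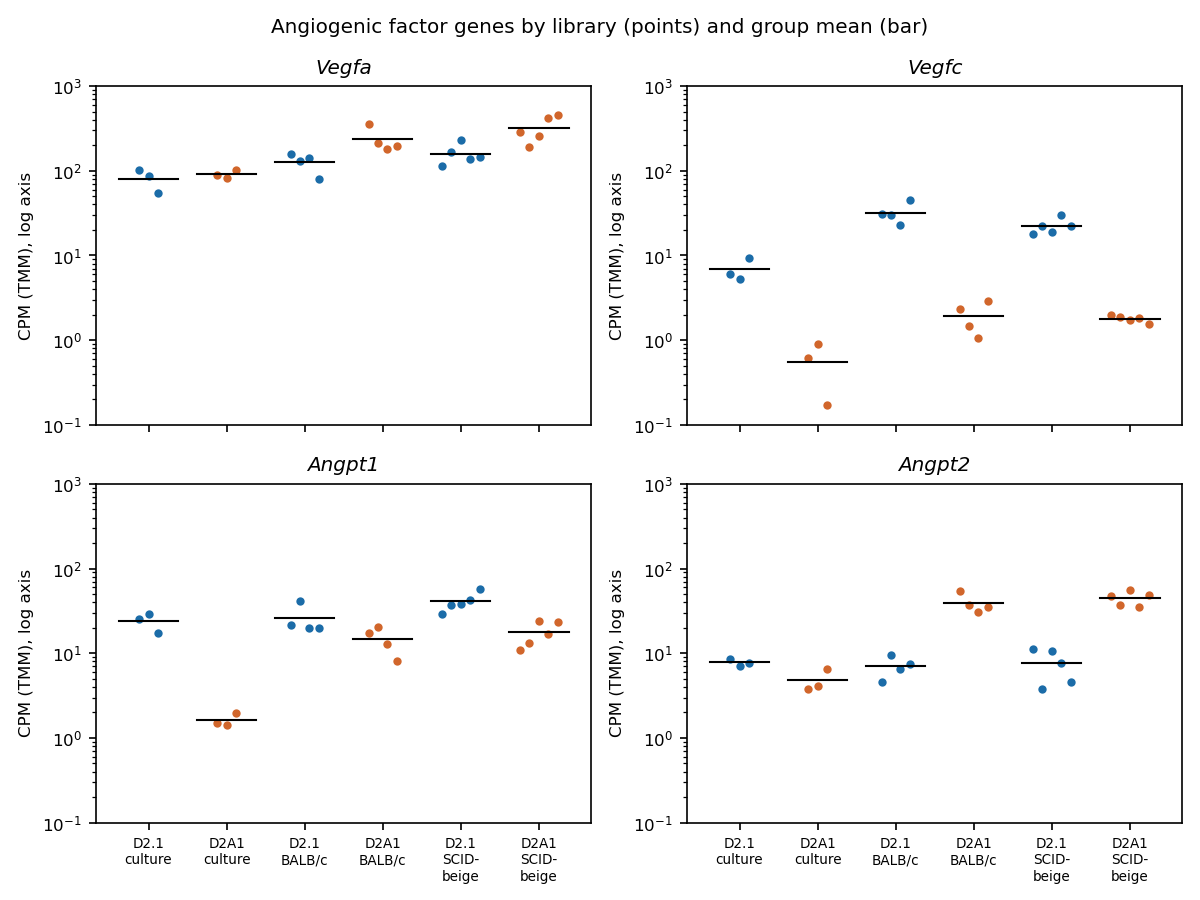
Level of the 4 factor genes (CPM with TMM normalization, log axis) in each of the 24 libraries (points, blue for D2.1 and orange for D2A1), with the group mean as a bar. Vegfc separates the lines in culture and in both hosts, whereas Angpt2 separates them widely in tumors only.

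Vegfa (ENSMUSG00000023951, chr17:46016993-46032369, minus strand), the main ligand of VEGF receptors 1 and 2, was at 158, 130.1, 141 and 79.5 CPM in D2.1 and 354, 211.04, 181 and 196 CPM in D2A1 tumors of BALB/c mice. In SCID-beige mice it was at 114, 168, 231, 139 and 145 CPM in D2.1 and 284, 192, 255, 414 and 450.2 CPM in D2A1 tumors. The lines did not overlap in BALB/c mice but did in SCID-beige mice, where D2.1 replicate 3 lay above the lowest D2A1 tumor. D2.1 tumors had 1.85-fold less Vegfa in BALB/c (-0.88 ± 0.26, edgeR adjusted p = 0.0254) and 1.99-fold less in SCID-beige mice (-0.99 ± 0.25, edgeR adjusted p = 0.00725). The BALB/c call was lost without D2.1 replicate 4 (edgeR adjusted p = 0.0525), without D2A1 replicate 1 (0.0662) and without D2.1 replicates 1 and 4 together (0.0804), all by edgeR. Against the cultures, Vegfa rose in D2A1 tumors (1.79 ± 0.27 for SCID-beige, edgeR adjusted p = 2.05e-04, and 1.37 ± 0.23 for BALB/c tumors, adjusted p = 5.99e-04). In D2.1 it rose in SCID-beige tumors (0.95 ± 0.27, edgeR adjusted p = 0.0110, or 0.0526 without culture replicate 3), while the difference of 0.68 ± 0.28 in BALB/c tumors was not called (adjusted p = 0.0556).

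Vegfc (ENSMUSG00000031520, chr8:54077606-54187096, plus strand) showed the opposite order and the largest difference of the 10 genes in both hosts. It was at 30.8, 29.7, 23.1 and 44.5 CPM in D2.1 and 2.35, 1.47, 1.07 and 2.91 CPM in D2A1 tumors of BALB/c mice, and at 17.9, 22.4, 18.8, 30.1 and 22.5 against 1.97, 1.85, 1.72, 1.84 and 1.55 CPM in SCID-beige mice. The lowest D2.1 tumor was above the highest D2A1 tumor in both hosts. The D2.1 level was 16.4-fold higher in BALB/c (4.04 ± 0.35, edgeR adjusted p = 1.97e-05) and 12.5-fold higher in SCID-beige mice (3.64 ± 0.23, edgeR adjusted p = 1.04e-07), close to the 12.3-fold of the cultures. Vegfc also rose from culture to tumor in both lines, by 1.68 ± 0.27 in D2.1 and 1.63 ± 0.51 in D2A1 for SCID-beige tumors (edgeR adjusted p = 3.60e-04 and 0.0172), and by 2.27 ± 0.29 and 1.79 ± 0.58 for BALB/c tumors (adjusted p = 1.08e-04 and 0.0222). The D2A1 calls rest on 10, 15 and 3 counts in the cultures and were lost without culture replicate 1 or 3 (adjusted p of 0.0525 to 0.0699).

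Angpt1 (ENSMUSG00000022309, chr15:42424723-42676977, minus strand) was at 21.7, 41.8, 19.9 and 19.9 CPM in D2.1 and 17.6, 20.3, 12.7 and 8.12 CPM in D2A1 tumors of BALB/c mice. It was at 29.1, 36.9, 38.3, 43.1 and 57.1 against 10.8, 13.3, 23.8, 17.0 and 23.4 CPM in SCID-beige mice. The lines were apart in SCID-beige mice, with a 2.33-fold higher level in D2.1 (1.22 ± 0.25, edgeR adjusted p = 0.00210). They overlapped in BALB/c mice, where the difference was not called (0.82 ± 0.34, edgeR adjusted p = 0.0864) except with DESeq2 (adjusted p = 0.0418) or the replicate block (0.00526). From culture to tumor, Angpt1 rose steeply in D2A1 (3.39 ± 0.34 for SCID-beige and 3.14 ± 0.35 for BALB/c tumors, edgeR adjusted p = 8.81e-06 and 2.88e-05). In D2.1 the difference was 0.75 ± 0.26 for SCID-beige tumors (edgeR adjusted p = 0.0297, lost without tumor replicate 5 or culture replicate 1 or 3, at 0.0579 to 0.128) and 0.14 ± 0.31 for BALB/c tumors (adjusted p = 0.718).

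Angpt2 (ENSMUSG00000031465, chr8:18690263-18741562, minus strand) had the most negative line difference of the 10 genes in both hosts. Its level was 4.64, 9.43, 6.49 and 7.54 CPM in D2.1 and 54.7, 36.8, 31.0 and 35.4 CPM in D2A1 tumors of BALB/c mice. In SCID-beige mice it was 11.4, 3.79, 10.6, 7.76 and 4.54 CPM in D2.1 and 47.3, 37.1, 56.4, 35.1 and 48.6 CPM in D2A1 tumors. Every D2.1 tumor lay below the lowest D2A1 tumor. The fitted difference of the groups was 5.60-fold in BALB/c (-2.49 ± 0.27, edgeR adjusted p = 8.02e-05) and 5.88-fold in SCID-beige mice (-2.55 ± 0.30, edgeR adjusted p = 2.76e-05). In D2.1, the tumors differed little from the cultures (-0.07 ± 0.37 for SCID-beige and -0.13 ± 0.30 for BALB/c tumors, edgeR adjusted p = 0.887 and 0.739). In D2A1 they were 9.15-fold and 8.18-fold higher (3.19 ± 0.26 and 3.03 ± 0.28, edgeR adjusted p = 1.69e-06 and 7.66e-06).

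Angpt2 lies within Mcph1 on the opposite strand, and whether counting used the strand was not given in the sources used here, so reads of the 2 genes may not be separate. Mcph1, which encodes a DNA damage and chromosome condensation protein, was at 19.2 ± 0.996 CPM in D2.1 and 37.1 ± 7.73 CPM in D2A1 tumors of BALB/c mice (SD, n = 4 each), and at 26.9 ± 5.99 and 38.9 ± 8.35 CPM in SCID-beige mice (n = 5 each). Its line difference was -0.94 ± 0.19 in BALB/c mice (edgeR adjusted p = 0.00319) and -0.53 ± 0.20 in SCID-beige mice (adjusted p = 0.0587), smaller than that of Angpt2 in both. From culture to tumor Mcph1 fell in D2A1 (-1.08 ± 0.19 for SCID-beige tumors, edgeR adjusted p = 5.06e-04) where Angpt2 rose. Mcph1 also fell in D2.1 (-1.52 ± 0.20 for SCID-beige and -1.94 ± 0.18 for BALB/c tumors), where Angpt2 differed little. In cultures Mcph1 averaged 75.6 CPM in D2.1 and 80.9 CPM in D2A1, far above Angpt2 at 7.83 and 4.82 CPM. The Angpt2 values of cultures, and the changes and ratios that use them, are therefore the most open to Mcph1 reads. The share of such reads was not tested.

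**Figure D3:**
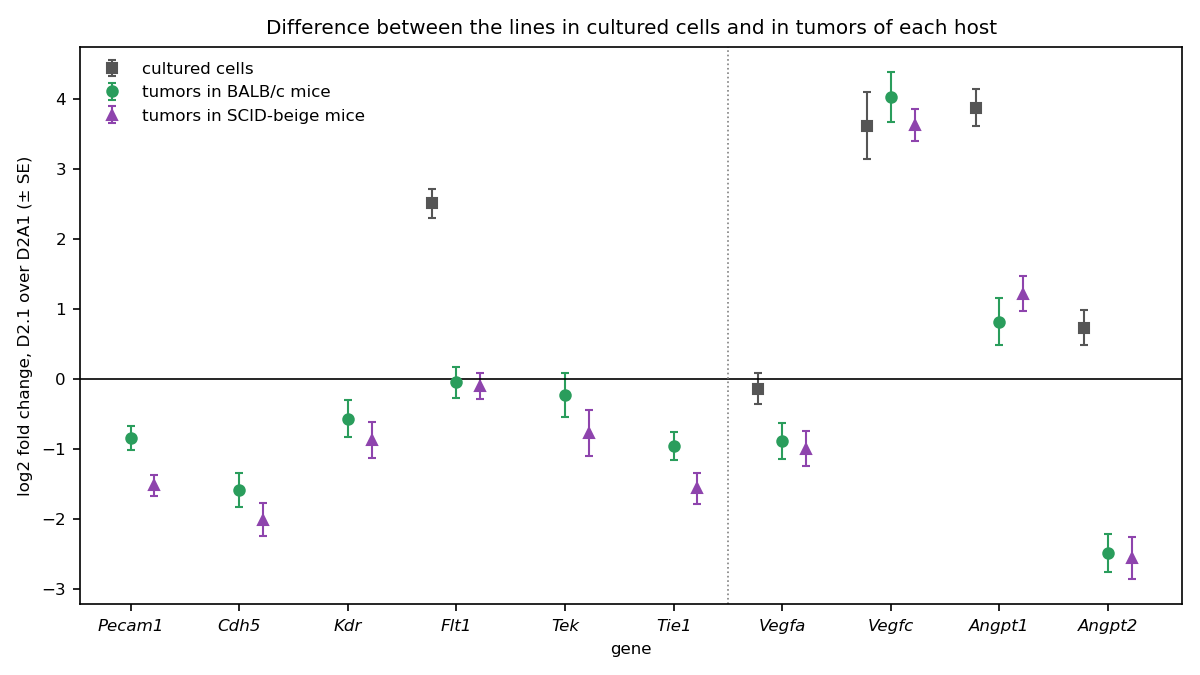
Log2 fold change of D2.1 over D2A1 with its standard error for each gene (edgeR), in cultured cells (squares), BALB/c tumors (circles) and SCID-beige tumors (triangles), with vessel genes left and factor genes right of the dotted line. The 5 vessel genes not tested in culture have no square, and Flt1, Angpt1 and Angpt2 have tumor values far below their culture values.

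Whether the change from culture to tumor differed between the lines was tested as an interaction in the cultures and SCID-beige tumors. Of the 10 genes, 6 were called, where 12.8% of 15077 genes were called. Besides Flt1, these were Angpt1 (-2.66 ± 0.41, edgeR adjusted p = 2.01e-04), Angpt2 (-3.28 ± 0.45, adjusted p = 7.19e-05), Pecam1, Cdh5 and Kdr. Angpt1 rose more in D2A1, whereas Angpt2 rose in D2A1 and differed little between tumors and cultures in D2.1. The values of Pecam1, Cdh5 and Kdr turn on 0 to 5 counts per culture. The Cdh5 and Kdr calls were lost without D2.1 culture replicate 1 (edgeR adjusted p = 0.257 and 0.0928) and in some of the other fits that left out 1 culture. For Vegfc the difference was 0.031 ± 0.79 (edgeR), which was not called, and its SE leaves room for a difference of over 1 log2 unit either way. For Vegfa it was -0.85 ± 0.38 (edgeR adjusted p = 0.169).

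The host made no difference that passed the test for any of the 10 genes. In D2.1 tumors, 0 of 10 were called between BALB/c and SCID-beige mice by edgeR, beside 0.891% of all genes. At an unadjusted p under 0.05 were 5 of the 10, beside 1489 of all 14929 genes, and DESeq2 called 1, beside 461 of all genes. In D2A1 tumors, 0 of 10 were called by edgeR, beside 1.17%. There, 1 of the 10 had an unadjusted p under 0.05, beside 1472 of all 14572 genes, and DESeq2 called 0, beside 569 of all genes. The difference between the lines in their host effect was called for 0 of 10 by edgeR, beside 0.0187% (3 of 16036 genes). For 1 of the 10 its unadjusted p was under 0.05, beside 1355 of all genes, and DESeq2 called 0, beside 105 of all genes. The nearest to a call was Pecam1 in D2.1, which did not overlap between hosts, 59.5, 46.9, 39.4 and 51.4 CPM in BALB/c against 33.3, 24.9, 32.8, 30.8 and 26.7 CPM in SCID-beige mice (0.77 ± 0.17, edgeR adjusted p = 0.0661), and which DESeq2 called (0.75, adjusted p = 0.00505). Its counterpart in D2A1 was 0.062 ± 0.14 (edgeR adjusted p = 0.951), and the difference between the 2 host effects was 0.67 ± 0.21 (adjusted p = 0.352). For the other vessel genes in D2.1 the host difference was 0.63 ± 0.25 for Kdr, 0.59 ± 0.27 for Tie1, 0.56 ± 0.39 for Tek, 0.39 ± 0.28 for Cdh5 and -0.29 ± 0.25 for Flt1, all on the log2 scale. In D2A1, those of the 6 vessel genes ranged from -0.38 (Flt1) to 0.30 (Kdr). Without replicates 1 and 4 of the BALB/c group, the D2.1 value of Pecam1 was 0.57 (edgeR adjusted p = 0.940). Of the 28 other endothelial genes 0 were called between hosts by edgeR in either line. At an unadjusted p under 0.05 were 5 in D2.1 and 3 in D2A1, beside 1489 of 14929 and 1472 of 14572 genes. DESeq2 called 1 and 0 of the 28, beside 461 and 569 of all genes. T cell genes, which mark the difference between hosts, did change in the same fits, for example Cd3e (7.25 ± 0.71 in D2.1, edgeR adjusted p = 6.57e-04).

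Per length, the order of the genes differed between the lines. Within the tumor table, FPKM, the authors' counts scaled for gene length and library total, put Vegfa first in all 4 tumor groups, at 104 ± 29.7 (SD, n = 4) in D2.1 and 202 ± 76.0 in D2A1 tumors of BALB/c mice. In D2A1 BALB/c tumors, Pecam1 at 37.5 ± 4.44 FPKM and Cdh5 at 35.9 ± 5.39 FPKM came next and differed by less than their SD. In D2.1 tumors of the same host, the next was Vegfc at 27.3 ± 7.12 FPKM, ahead of Flt1 at 20.1 ± 6.39 and Pecam1 at 19.9 ± 3.71 FPKM, the latter pair differing by less than their SD. In D2.1 SCID-beige tumors it was Flt1 at 24.7 ± 6.35, then Vegfc at 18.8 ± 3.92 and Angpt1 at 14.0 ± 3.70 FPKM, the first pair of which differed by less than the SD of Flt1. Vegfc was next to last in both D2A1 groups (1.76 ± 0.789 and 1.56 ± 0.119 FPKM), and Tek was last in all tumor groups. Gene lengths differ between the tables of cells and tumors (by 1.45 times at the median, and by 2.81 times for Vegfa), so FPKM was compared within a table only.

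The 2 angiopoietins changed places. The FPKM of Angpt2 over that of Angpt1 in the same library was 0.291 to 0.542 with a median of 0.409 in D2.1 cultures and 3.01 to 3.97 with a median of 3.39 in D2A1 cultures. It was 0.294 to 0.521 in D2.1 and 2.50 to 5.99 in D2A1 tumors of BALB/c mice, and 0.109 to 0.538 against 2.84 to 6.01 in SCID-beige mice. Thus Angpt1 was the higher in every D2.1 library and Angpt2 in every D2A1 library. Vegfa exceeded Vegfc by 1.69 to 5.78 times in D2.1 and 64.1 to 159.6 times in D2A1 tumors of BALB/c mice, and by 4.39 to 11.6 and 98.2 to 275 times in SCID-beige mice.

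Relative to Cdh5, the other vessel genes were not equally lower in D2.1. Tek over Cdh5 (FPKM) was 0.0576 to 0.122 in D2.1 and 0.0296 to 0.0395 in D2A1 tumors of BALB/c mice. The same ratio was 0.0676 to 0.0930 and 0.0276 to 0.0411 in SCID-beige mice, so that D2.1 was higher without overlap in either host. Flt1 over Cdh5 was 1.35 to 2.93 against 0.566 to 0.635 in BALB/c mice and 1.28 to 4.87 against 0.660 to 0.844 in SCID-beige mice. Kdr over Cdh5 was 0.287 to 0.404 against 0.122 to 0.204 and 0.254 to 0.389 against 0.106 to 0.172, again higher in every D2.1 tumor. For Pecam1 and Tie1 the lines overlapped in SCID-beige mice. Pecam1 over Cdh5 was 1.53 to 2.36 against 0.941 to 1.13 in BALB/c and 1.05 to 1.78 against 0.809 to 1.22 in SCID-beige mice, and Tie1 over Cdh5 was 0.374 to 0.505 against 0.2202 to 0.308 and 0.234 to 0.512 against 0.200 to 0.287. These ratios share Cdh5 as the divisor and are given without a test. Cdh5 had the most negative line difference of the 6 vessel genes (-1.59 in BALB/c and -2.01 in SCID-beige mice). Dividing by it therefore raises the ratio of any less changed gene in D2.1.

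The other endothelial genes pointed the same way as Cdh5 for the most part. Of 28 tested, 17 were lower and 5 higher in D2.1 BALB/c tumors, with a median log2 fold change of -0.96. In SCID-beige mice 18 were lower and 4 higher, with a median of -1.51. The shares of all genes called in these comparisons, in either direction, were 32.6% and 32.1%. Among those lower in both were Emcn, which encodes the sialoprotein endomucin (-1.44 ± 0.27 and -2.11 ± 0.26), the tight junction gene Cldn5 (-1.31 ± 0.37 and -2.33 ± 0.32) and Gpihbp1, which holds lipoprotein lipase on capillaries (-1.80 ± 0.28 and -2.62 ± 0.26). The genes higher in D2.1 were Notch4 (3.90 ± 0.22 and 4.11 ± 0.21), S1pr1 (2.1 ± 0.19 and 2.59 ± 0.19), Vwf (1.40 ± 0.26 and 1.10 ± 0.28) and Ecscr (1.02 ± 0.29 and 0.78 ± 0.26) in both hosts and Sox18 in BALB/c mice (2.80 ± 0.64). Emcn, Cldn5, Vwf and Ecscr were chosen after their values were seen. In D2.1 BALB/c tumors Notch4 was at 417 to 745 CPM and S1pr1 at 80.9 to 111 CPM, and both ranges overlapped those of the D2.1 cultures. In D2.1 SCID-beige tumors Notch4 was at 503 to 749 CPM, again overlapping the cultures, and S1pr1 at 113 to 163 CPM, above every D2.1 culture. Vwf (von Willebrand factor) was at no more than 5 counts in a culture. Sox18 was at no more than 1 count in a culture but ranged over 14.2 to 262 CPM in the 4 D2.1 BALB/c tumors and 3.76 to 282 CPM in the 5 of SCID-beige mice.

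**Figure D4:**
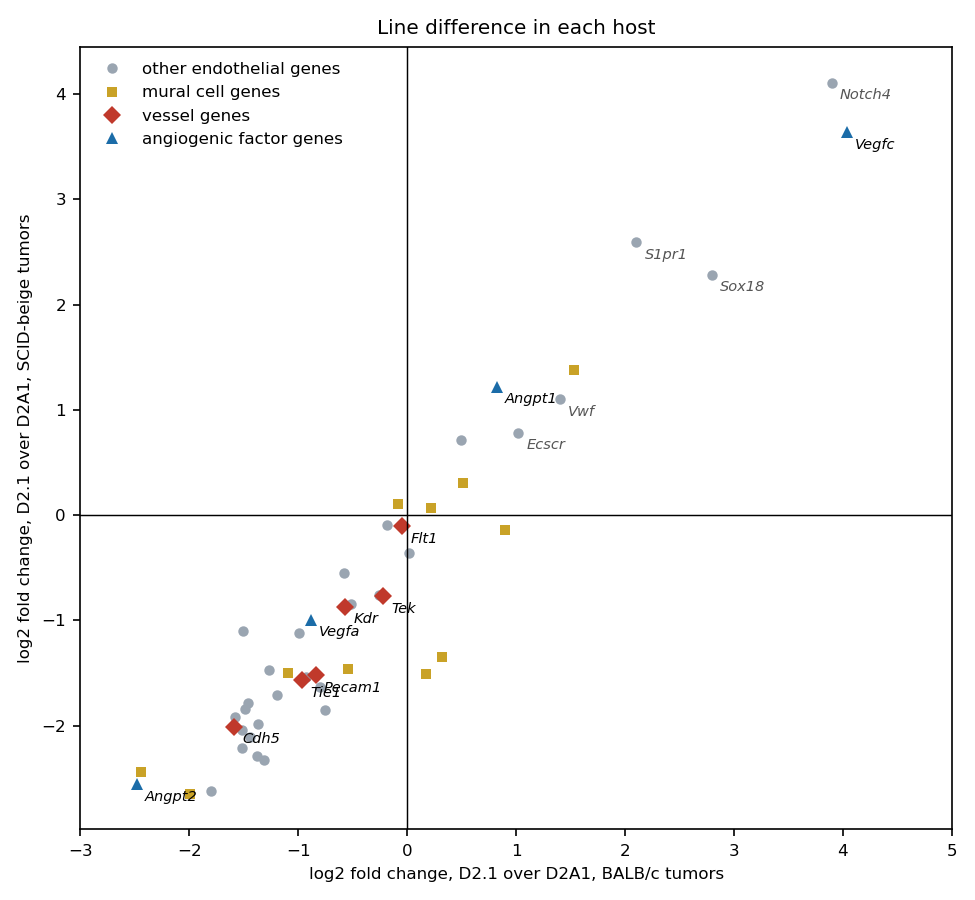
Log2 fold change of D2.1 over D2A1 in BALB/c tumors (horizontal axis) and in SCID-beige tumors (vertical axis), each point 1 gene, for the vessel genes, the factor genes, the other endothelial genes and the mural cell genes tested in both hosts. Most endothelial genes lie in the lower left, with Flt1 near the origin, while Vegfc lies in the upper right beside Notch4.

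Other cell types of the vessel wall were measured from their own lists. Of 12 mural cell genes tested in BALB/c mice, 1 (Pdgfrb, 0.90 ± 0.20) was higher and 2 were lower in D2.1 tumors, and of 11 in SCID-beige mice 0 were higher and 5 lower, where 32.6% and 32.1% of all genes were called in either direction. The count in BALB/c mice is thus under that share. The largest differences were those of Mcam (-2.45 ± 0.18 and -2.44 ± 0.24), an adhesion molecule of pericytes and endothelium, and Cspg4 (-2.0 ± 0.40 and -2.65 ± 0.52), which encodes the pericyte proteoglycan NG2. Mcam was also higher in D2A1 than in D2.1 cultures, at 18.6 against 3.55 CPM on average. Rgs5, a pericyte marker, was at 26.0 CPM in D2.1 and 27.7 CPM in D2A1 tumors of BALB/c mice and was not called. Of 7 lymphatic genes 3 were tested. Pdpn was higher in D2.1 in BALB/c mice (0.82 ± 0.28), and Flt4, the receptor of VEGF-C, was lower in D2.1 tumors of both hosts (-1.18 ± 0.28, edgeR adjusted p = 0.00874, and -2.36 ± 0.27, adjusted p = 2.18e-05), where Vegfc was higher. Of 10 genes of tip cells and arteries, 4 were lower and 2 higher in D2.1 BALB/c tumors and 3 and 2 in SCID-beige mice, against the same shares of all genes. Hey1, a target of Notch signaling, was higher (3.82 ± 0.27 and 3.55 ± 0.30), and the most strongly lower were Nid2, a basement membrane gene (-2.74 ± 0.41 and -3.11 ± 0.57), and Apln, the ligand of the apelin receptor (-2.57 ± 0.22 and -2.36 ± 0.33).

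Further ligands were split between the lines as the 4 factor genes were. Of 15 tested, 4 were higher and 4 lower in D2.1 BALB/c tumors and 4 and 5 in SCID-beige mice. All counts of these lists stand beside 32.6% of all genes called in BALB/c and 32.1% in SCID-beige mice, and that of the co-receptors in BALB/c mice is at that share. Pgf, which encodes placental growth factor, a ligand of VEGF receptor 1, was lower (-3.64 ± 0.31 and -3.47 ± 0.55). Vegfd, a relative of Vegfc, was higher (3.46 ± 0.26 and 3.48 ± 0.34), as were Angpt4 (3.80 ± 0.63 and 2.51 ± 0.56) and Sema3e (5.52 ± 0.87 and 6.57 ± 0.76). Of 11 inhibitors of angiogenesis, 6 were higher and 2 lower in BALB/c mice and 7 and 2 in SCID-beige mice. Thbs1, which encodes thrombospondin-1, was lower in D2.1 (-3.89 ± 0.38 and -4.02 ± 0.40), and Dcn, which encodes decorin, was higher (3.02 ± 0.28 and 3.47 ± 0.31). Of 6 co-receptors and modulators, 1 was higher and 1 lower in BALB/c and 1 and 2 in SCID-beige mice, namely Adgra2 higher (2.27 ± 0.19 and 1.02 ± 0.28), Nrp2 lower (-1.02 ± 0.22 and -1.27 ± 0.17) and, in SCID-beige mice, Reck lower (-2.11 ± 0.61). Of 15 tested genes of the response to hypoxia, 4 were higher and 6 lower in BALB/c mice and 3 and 4 in SCID-beige mice, with Car9, which encodes a carbonic anhydrase, higher (3.09 ± 0.37 and 3.21 ± 0.23) and Hk2, which encodes hexokinase 2, lower (-1.12 ± 0.28 and -1.23 ± 0.29).

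Other cells of the tumors were counted beside these results. The summed level of 8 macrophage genes was 1905 to 2374 CPM in D2.1 and 1556 to 2941 CPM in D2A1 tumors of BALB/c mice, and 1006 to 2305 against 866 to 1637 CPM in SCID-beige mice, where 3 of 8 (Adgre1, Csf1r and Mrc1) were called higher in D2.1. The sum of 6 T and B cell genes was 35.8 to 134 against 4.36 to 17.3 CPM in BALB/c mice, with 4 of the 4 tested (Cd3d, Cd3e, Cd3g and Cd8a) higher in D2.1. Adipocyte genes (6) summed to 22.8 to 550.2 against 49.8 to 273 CPM in BALB/c and 1.88 to 89.7 against 18.3 to 111 CPM in SCID-beige mice, and 0 were called between the lines by edgeR. In BALB/c mice 2 of the 6 had an unadjusted p under 0.05, beside 6402 of all 14953 genes, and DESeq2 called 2, beside 5746. In SCID-beige mice these counts were 0 and 0, beside 6011 and 5127 of all 14355 genes. Skeletal muscle genes (6) summed to 33.7 to 346 against 13.4 to 70.8 CPM and to 2.19 to 265 against 6.03 to 24.5 CPM, with 1 called higher in D2.1 in each host (Myh4 and Acta1). Skin genes (6) summed to 11.9 to 184 against 11.6 to 29.9 CPM and to 9.96 to 136 against 15.0 to 42.8 CPM, with Krt5 higher in BALB/c and Krt10 lower in SCID-beige mice. Of 2 platelet genes tested, 1 (Itga2b) was higher in D2.1 tumors of both hosts, and it was also higher in D2.1 cultures. The shares of all genes called between the lines, in either direction, were 32.6% in BALB/c and 32.1% in SCID-beige mice. The macrophage count is near the latter share. The part of these cells in the differences of the vessel genes was not tested. Without D2.1 replicates 1 and 4 of BALB/c mice, 5 of the 10 genes were called between the lines in that host (Cdh5, Pecam1, Tie1, Vegfc and Angpt2), with a log2 fold change of -1.84 for Cdh5 (edgeR adjusted p = 0.00401). In that fit 3350 of all 15720 genes tested were called.

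The angiogenic factors were last set against the vessels from tumor to tumor, with Cdh5 as the measure of vessels and the other vessel genes as the yardstick. Correlations of log2 CPM were taken within each line over its 9 tumors, 18 relations in all, with exact permutation p-values (2-sided). Of the vessel genes in D2.1 tumors, Kdr followed Cdh5 with r = 0.854 (rho = 0.867, exact permutation p = 0.00192, adjusted 0.0346). It was the only 1 of the 18 relations to pass and rests on few tumors. Without the 2 tumors farthest from the median of Cdh5 it was r = 0.724 (exact permutation adjusted p = 0.221), in 6 of the 9 fits that left out 1 tumor it did not pass (adjusted p up to 0.156), and rho did not pass after adjustment (0.0812). Within hosts r was 0.887 over 4 BALB/c and 0.846 over 5 SCID-beige tumors. Pecam1, Tek and Tie1 had r of 0.711, 0.797 and 0.690 in D2.1 and 0.699, 0.608 and 0.622 in D2A1 tumors, none of which passed the adjustment.

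Flt1 had r = -0.333 with Cdh5 in D2.1 tumors (exact permutation p = 0.372, adjusted 0.515) and r = 0.661 in D2A1 tumors (exact permutation p = 0.0506, adjusted 0.114). Of the factor genes, Vegfa had r = -0.0385 in D2.1 (rho = 0.0167, exact adjusted p = 0.929) and r = 0.269 in D2A1 tumors (rho = 0.133, exact adjusted p = 0.572). Angpt2 had r = 0.436 and 0.496 (rho = 0.417 and 0.550, exact adjusted p = 0.352 and 0.283), and Vegfc r = 0.193 and -0.298 (exact adjusted p = 0.666 and 0.566). Angpt1 had r = -0.232 in D2.1 and r = 0.793 in D2A1 tumors (rho = 0.767, exact permutation p = 0.00843, adjusted 0.0588). The D2A1 value was 0.939 without the 2 tumors farthest from the median of Cdh5 (exact adjusted p = 0.0286), and 0.949 and 0.756 within hosts. These values do not take the host into account. With values centred on the host mean, Angpt1 and Flt1 passed in D2A1 tumors (r = 0.798 and 0.843, exact permutation adjusted p = 0.0488 and 0.0387). In D2.1 tumors Kdr (r = 0.865) and Pecam1 (r = 0.866, exact permutation adjusted p = 0.0387) passed in the same way. The other factor genes did not pass in either way, which at 9 tumors a line does not show that a relation is absent.

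**Figure D5:**
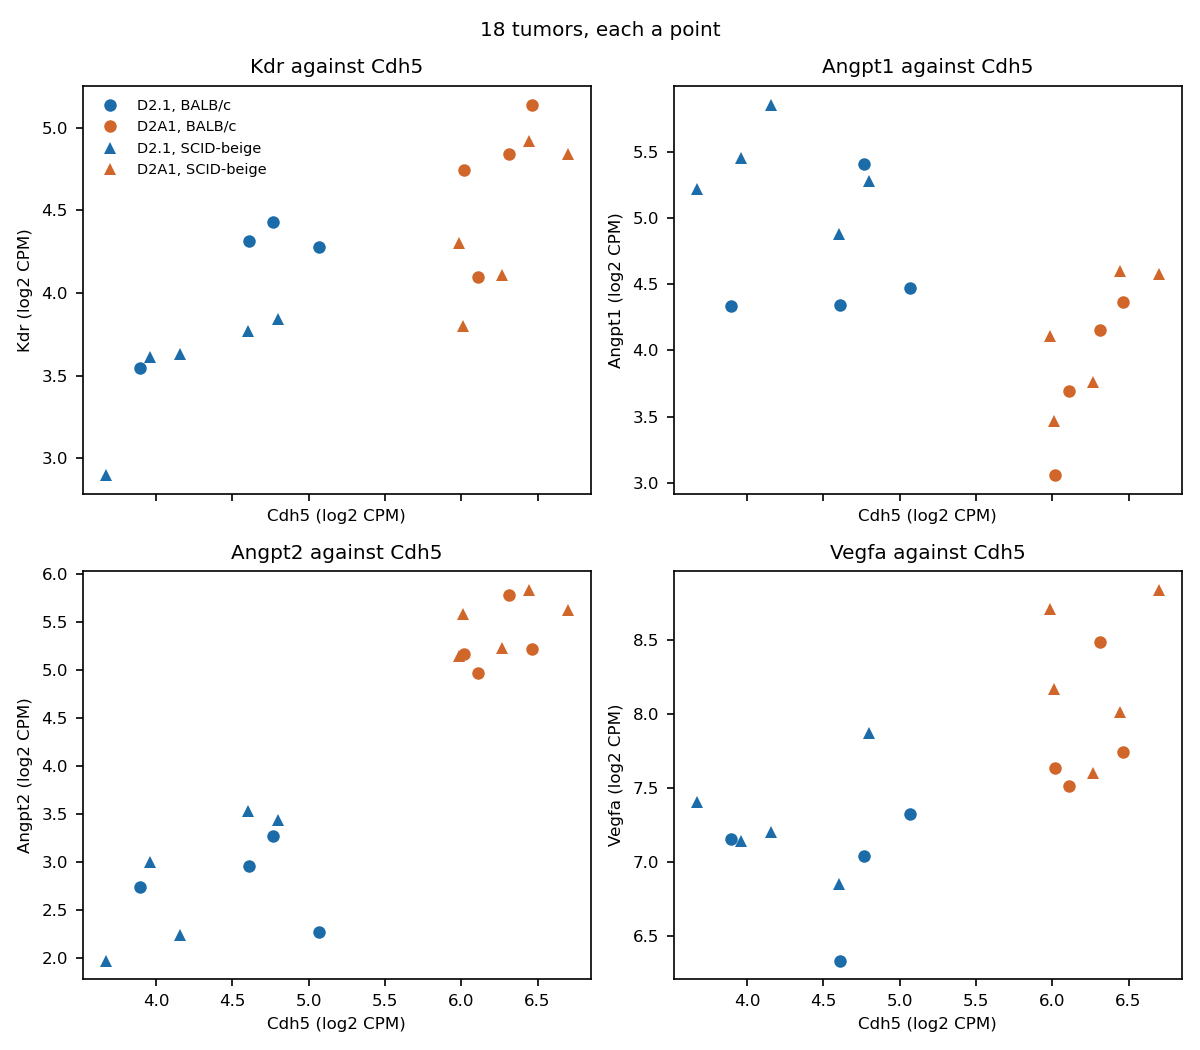
Log2 CPM of Kdr, Angpt1, Angpt2 and Vegfa (vertical axes) against that of Cdh5 (horizontal axis) in the 18 tumors, blue for D2.1 and orange for D2A1, circles for BALB/c and triangles for SCID-beige mice. The lines do not overlap in Cdh5. Among D2.1 tumors r with Cdh5 is 0.854 for Kdr and -0.0385 for Vegfa, and the difference between these values was not tested. The Kdr relation did not pass with rho or without the 2 tumors farthest from the median of Cdh5.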

How the data were processed

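RNA-seq libraries of cultured D2.1 and D2A1 cells and of whole snap-frozen tumors were sequenced on an Illumina NovaSeq instrument. Reads were aligned by the authors with STAR to mm10, per the submitters' processing notes, and raw counts per Ensembl gene were deposited in 1 table for cells (35275 genes) and 1 for tumors (54532 genes), of which 34519 genes were shared. FPKM tables were deposited as well, and were made by the authors from those counts, gene length and library total. The counting program, annotation and strand setting were not given in the sources used here. Symbols and coordinates are those of GENCODE M21 (GRCm38). IDs without a match held 0.0969% of counts in cells and 0.0446% in tumors.

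Counts were tested with edgeR 4.0.16 (R 4.3.3; TMM, default filterByExpr, robust quasi-likelihood F test), each comparison on its own groups with no covariate and p-values adjusted by Benjamini-Hochberg over all genes tested, at a threshold of 0.05. Standard errors were taken as the size of the log2 value over the root of its F statistic. Interactions were fitted on 4 groups. A gene is called where it passed. Tumor to culture ratios of genes near 0 in culture are from pooled counts with exact 95% intervals. Correlations used log2 CPM with a prior count of 2 (scipy 1.17.1), and likeness the same values centred on the group mean. Alternatives were DESeq2 1.42.0, its size factors, other filters, the replicate number as a block and leaving out each library. Gene lists are described by counts and medians. The 10 genes and all lists were chosen with earlier results of these data known. All 10 are named. From the other lists, genes were taken from the 3 with the largest change among those called, but not all of these are named. Others named were chosen after their values were seen. On simulated data, edgeR found 62.5% to 94.0% of 200 genes changed by 2 log2 units in the 11 comparisons, with at most 7.91% false calls. DESeq2 found 70.0% to 94.5%, with up to 21.0% false calls, a limit on its calls given above. The 200 genes were among 12298 to 15656, a far smaller share than was called between lines or between tumors and cultures.

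Same-numbered libraries deviated together (every pair's r over 0.1) between the lines in culture (0.184 to 0.491), between the lines in BALB/c mice (0.100 to 0.491) and between D2A1 SCID-beige tumors and cultures (0.131 to 0.273), and not in the other comparisons. The numbers come from the sample labels, which do not say what they share. No 2 replicates agreed within sampling noise (chi-square per degree of freedom 4.96 to 117 over 38 pairs).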

Additional observations from a re-analysis of the deposited data

Results flagged for a closer look

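Of 40 sets of levels checked (10 genes in the 4 tumor groups), 2 held a tumor far from the rest of its group, where about 1 in 20 is what such a check gives by chance. Pecam1 in D2A1 replicate 2 from BALB/c mice was at 104.7 CPM, against 82.6 to 84.2 CPM in the other 3. Angpt1 in D2.1 replicate 2 from BALB/c mice was at 41.8 CPM, against 19.9 to 21.7 CPM in the other 3.

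For 6 genes the change from culture to SCID-beige tumors differed between the lines by the interaction test in edgeR. The difference of log2 changes, D2.1 minus D2A1, was -2.60 for Flt1, -2.66 for Angpt1 and -3.28 for Angpt2. For 3 genes with 0 to 5 counts per culture it was -2.86 (Pecam1), -4.29 (Cdh5) and -5.40 (Kdr), values that depend on the prior count.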

How the results depend on the processing

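No value of the 10 genes changed direction past the threshold under any alternative, and of the fold changes and correlations compared 1777 stayed on their side of it, 36 lost the call and 14 gained one. The number of the 10 called moved by more than 1.5 times in 1 comparison, D2.1 tumors between hosts, where DESeq2 called 1 (Pecam1). Relations with Cdh5 that passed in D2.1 tumors numbered 1, but 0 with Spearman's rho, 0 without the 2 tumors farthest from its median (SCID-beige replicate 2 and BALB/c replicate 3), 2 with values centred on the host mean and 0 to 2 when each tumor was left out. In D2A1 tumors 0 passed, but 1 (Angpt1) without the 2 farthest (SCID-beige replicates 4 and 5), 2 (Angpt1 and Flt1) centred on the host mean and 0 to 1 when each tumor was left out. The causes were not tested.

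With the replicate block, Kdr and Angpt1 gained a call between the lines in BALB/c mice (above), Vegfa gained one from D2.1 cultures to BALB/c tumors (0.91, edgeR adjusted p = 0.0123), and calls were lost for Angpt1 from D2.1 cultures to SCID-beige tumors (0.54, adjusted p = 0.110) and for Vegfc from D2A1 cultures to BALB/c tumors (1.63, adjusted p = 0.0740). It changed no other call on the 10 genes. That Vegfc call was also lost without BALB/c replicate 4 (edgeR adjusted p = 0.0555), and the Vegfa value was called with DESeq2 (0.0406), without BALB/c replicate 4 (0.0121) and without culture replicate 1 (0.0452). In the interaction with growth, Cdh5 lost its call without D2.1 culture replicate 1 or D2A1 culture replicate 1 or 3, and Kdr without D2.1 culture replicate 1 or 3 or any 1 D2A1 culture (edgeR adjusted p 0.0575 to 0.257 over both).

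Counts over all genes moved most between hosts. In D2.1 tumors 133 genes were called, against 461 with DESeq2, 275 without a filter, 14 with the block, 26 to 314 when each library was left out and 11 without replicates 1 and 4, an alternative chosen after seeing the data. In D2A1 tumors they numbered 170, against 569 with DESeq2, 0 with the block (897 at an unadjusted p under 0.05 in edgeR) and 27 to 172 when each library was left out. The line by host interaction called 3, against 105 with DESeq2, 6 with its size factors, 7 without a filter and 0 to 12 when each library was left out (1109 to 1716 at an unadjusted p under 0.05). The block gave 4959 in place of 7844 for D2A1 BALB/c tumors against cultures, and 3053 in place of 1930 for the interaction with growth. Counts were low for Pecam1, Cdh5, Kdr, Tek and Tie1 in cultures (0 to 5), where they could not be tested between the lines, and for Vegfc in D2A1 cultures (3 to 15). In tumors the lowest were 23 for Tek and 18 for Vegfc.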

Other observations

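The genes whose levels most resembled those of the vessel genes from tumor to tumor were ranked by Pearson's r of log2 CPM, centred on each group mean, over the 18 tumors and 13764 genes, as a description without a test. With the mean of the 6 vessel genes, the first was Vash1 (r = 0.877), which encodes the endothelial inhibitor vasohibin-1, and Cdh13, which encodes T-cadherin, was among the first 10 (0.855). The other 8 were Ssr1, Thnsl1, Elovl6, Ubfd1, Gspt1, Gpt2, Tmem241 and Hmgxb3, with r down to 0.825. The mean of the vessel genes includes Flt1, which was at 135 to 167 CPM in D2.1 cultures and had r = -0.333 with Cdh5 in D2.1 tumors. Vash1 was lower in D2.1 tumors of both hosts (-1.21 ± 0.36 and -1.36 ± 0.37, edgeR adjusted p = 0.0265 and 0.0121).

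The factor genes had other neighbors. The closest to Angpt2 was Thsd1 (r = 0.820), followed by Lingo1, Ccdc126, Cfap300 and Riox2 (0.785). Those of Vegfc were Cxcl9 (0.805), an interferon-induced chemokine, 9130019O22Rik, Gzma, which encodes a granzyme of cytotoxic lymphocytes, Krt17 and Ripply3 (0.727). Vegfa was followed by Fnbp4 (0.907), Mbd1, Cdk2, Cblb and Slc25a37 (0.849), and Angpt1 by Mid2 (0.941), Zfp11, 1190002N15Rik, Myo9a and Heatr5b (0.914). The points share library, depth and tumor makeup.

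Several genes commonly used as markers of vessels or of the vessel wall were read from cultures and differed between the cultured lines by edgeR, in either direction. Of all genes tested there, 44.9% were called. Esm1, a gene of tip cells, was at 4.98 CPM on average in D2.1 and 0 CPM in D2A1 cultures (edgeR adjusted p = 5.69e-04). Notch3, a receptor of mural cells, was at 18.7 and 0.686 CPM (4.77 ± 0.68, adjusted p = 6.14e-04). Acta2, which encodes smooth muscle actin, was at 218.1 and 15.8 CPM (3.82 ± 0.22, adjusted p = 3.64e-06). Apln and Mcam of the same lists were lower in D2.1 cultures (-2.34 ± 0.30 and -2.35 ± 0.35, edgeR adjusted p = 3.23e-04 and 7.74e-04). The endothelial gene Ptprb was lower there too (-3.66 ± 0.71, edgeR adjusted p = 0.00320). In tumors, Esm1 was higher in D2.1 in both hosts (2.12 ± 0.28 and 2.35 ± 0.30), whereas the values of Notch3 (0.22 ± 0.30 and 0.067 ± 0.30) and Acta2 (0.51 ± 0.30 and 0.31 ± 0.36) were not called. Cxcl12, a chemokine that acts on endothelium and leukocytes, was in contrast the most strongly lower of the listed genes in D2.1 cultures, at 0 against 10.3 CPM, and was lower in D2.1 tumors of SCID-beige mice (-1.26 ± 0.39, edgeR adjusted p = 0.0245) but not called in BALB/c mice (0.13 ± 0.67, adjusted p = 0.908).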
